A study of Homo sapiens with 6 samples.

Results

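The 10 genes described here encode enzymes that make serine and pass its carbon into the folate pool: PHGDH, PSAT1, PSPH, SHMT1, SHMT2, MTHFD1, MTHFD1L, MTHFD2, ALDH1L2 and TYMS. They were chosen by name, with earlier results of these data known, and all 10 were found among the 36517 genes of the count table. The libraries were made at day 3 from MDA-MB-453, an established line of human breast cancer cells. The small RNA tRF-1-Ser is derived from the precursor of a serine transfer RNA. There were 3 control libraries of cells given a negative-control lentivirus. The 3 shtRF libraries were of cells given a lentivirus with a short hairpin RNA against tRF-1-Ser. Both groups therefore carried a lentiviral vector, and the knockdown rested on 1 hairpin in 1 cell line. The comparison asks how the messenger RNAs of these enzymes differed when tRF-1-Ser was knocked down. tRF-1-Ser itself is too short for these libraries, so the knockdown could not be checked here. The study reports that it checked its knockdown models by qPCR and sequenced stable knockdown cells with their controls.

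Serine is built from 3-phosphoglycerate, an intermediate of glycolysis, by PHGDH, PSAT1 and PSPH in turn. SHMT1 in the cytosol and SHMT2 in the mitochondrion then split serine into glycine and a folate-bound carbon unit. Inside the mitochondrion MTHFD2 oxidises that unit, MTHFD1L releases it as formate, and ALDH1L2 burns part of it to carbon dioxide. MTHFD1 rebuilds the folate carriers from formate in the cytosol, where TYMS uses such a carrier to make thymidylate. Several of these genes, PHGDH, PSAT1, PSPH, SHMT2 and MTHFD2 among them, are known targets of ATF4, the transcription factor of the amino acid response. PHGDH is amplified or highly expressed in a share of breast cancers.

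The libraries held 63541413 to 78917459 counts. Expression profiles correlated at r = 0.990 to 0.991 within a group and at r = 0.977 to 0.980 between groups across 19628 genes, which are not independent of each other. Of the luminal epithelial markers, 11 of 11 were tested, and their summed level was 10754 to 11609 CPM (counts scaled to library depth) in control libraries and 13305 to 14668 CPM in shtRF libraries. KRT8, a luminal keratin, averaged 1557 ± 23.6 CPM over control and 2691 ± 171 CPM over shtRF libraries (SD, n = 3). Leukocyte markers summed to at most 0.252 CPM and endothelial markers to at most 0.349 CPM in any library, and basal mammary markers to 1.78 to 3.55 CPM. Of the fibroblast markers COL3A1, PDGFRB and DCN were not tested for low counts, while COL1A1 averaged 32.2 ± 2.87 CPM over control and 20.9 ± 0.33 CPM over shtRF libraries. In bulk RNA, fewer cells in a given state and less RNA per cell cannot be told apart.

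Control replicate 3 stood apart from the other control libraries at part of these genes. Its CPM, divided by the mean of control replicates 1 and 2, was 0.658 for PSPH, 0.660 for MTHFD2, 0.731 for PHGDH and 0.844 for SHMT2. The same quotient was 0.955 for MTHFD1L, 0.981 for TYMS, 1.02 for SHMT1 and 1.08 for MTHFD1. The members' results are therefore given with and without that library.

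Of the 10 genes, 9 passed the filter on low counts and 7 fell in shtRF cells at an adjusted p under 0.05: PHGDH, PSPH, SHMT2, MTHFD1, MTHFD1L, MTHFD2 and TYMS. Over all tested genes 18.9% fell at that threshold and 39.5% passed it in either direction. The 10 genes were chosen with earlier results of these data known, so this comparison is not independent evidence. Of the members 0 rose, also at an unadjusted p under 0.05 and with DESeq2, edgeR's exact test or limma, while 20.6% of all tested genes rose. SHMT1 and ALDH1L2 passed in neither direction, and PSAT1 was not tested. SHMT1 was higher at an unadjusted p of 0.0502 by edgeR, only just short of that cut. The median log2 fold change of the 9 tested enzymes was -0.36, against -0.0025 over all tested genes. Without control replicate 3 the same number, 7, fell, and the median was -0.49. In 6 of the 10 genes every shtRF library lay below every control library, a pattern found in 23.8% of tested genes. Summed over the 10 genes, the level was 792, 761 and 658 CPM in control replicates 1 to 3. In shtRF replicates 1 to 3 it was 450, 479 and 459 CPM, so the groups were separate. Much of the difference in the sum was that of PHGDH alone, which averaged 249 CPM in control and 80.4 CPM in shtRF libraries.

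**Figure D1:**
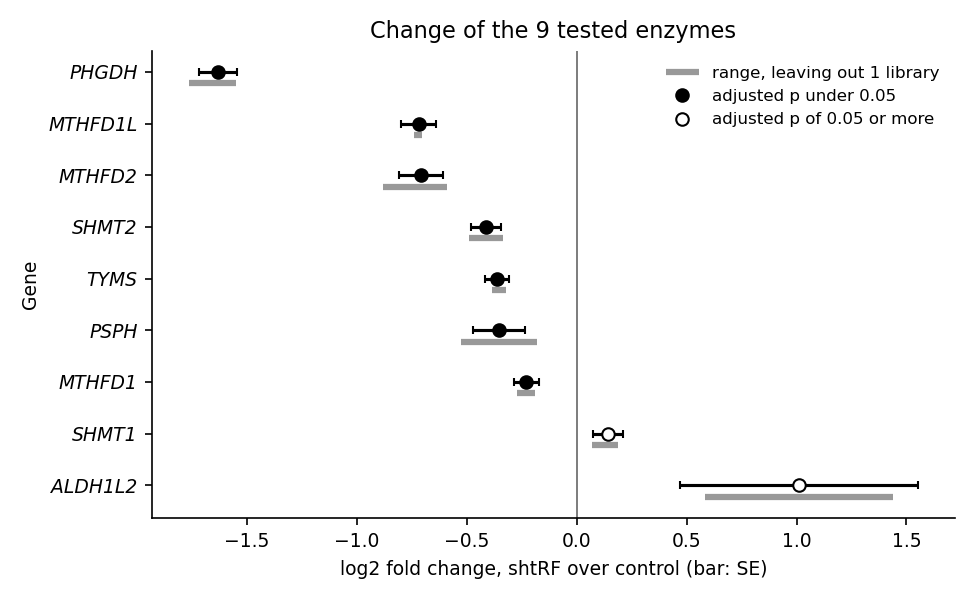
Log2 fold change of each of the 9 tested enzymes, shtRF over control, with its standard error (black bar). The grey bar is the range of the value when each library in turn was left out, and filled points passed an adjusted p of 0.05. PHGDH, at -1.63, lies furthest to the left, and only SHMT1 and ALDH1L2 lie to the right of 0.

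The first enzyme of serine synthesis changed most. PHGDH (chromosome 1, 119659798 to 119744215, plus strand, on GRCh38) encodes the dehydrogenase that commits 3-phosphoglycerate to the serine route, and none of its exonic bases lay in exons of another gene. It was 279, 269 and 200 CPM in control replicates 1 to 3. In shtRF replicates 1 to 3 it was 76.5, 83.2 and 81.7 CPM. The shtRF libraries were close together, and even the low control library was far above all of them. The mean went from 249 ± 42.8 to 80.4 ± 3.54 CPM (SD, n = 3), so PHGDH fell by 1.63 ± 0.09 on the log2 scale (SE), or 3.10-fold (adjusted p = 1.58e-12, edgeR). Without control replicate 3 it fell by 1.77 on the log2 scale. It was the only one of the enzymes to fall by more than 2-fold, as 3.11% of tested genes did, and 1.15% of tested genes had a lower log2 fold change. The study had itself singled out PHGDH from these libraries, so its direction here is not independent evidence.

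PSAT1 (chromosome 9, 78297143 to 78330093, plus strand), the aminotransferase of the next step, was barely detected in either group. Its counts were 4, 10 and 2 in control replicates 1 to 3 and 8, 0 and 6 in shtRF replicates 1 to 3. Every one of these counts was even, as happens where both mates of a read pair are counted, so the molecules behind them were fewer still. The count of 0 in shtRF replicate 2 allows up to 3 unseen read pairs, or 6 counts where both mates are counted, which is 0.0874 CPM. The groups overlapped, the gene failed the filter on low counts, and no change could be detected at this depth. Its pseudogenes were near 0 as well, and PSAT1P3 had at most 2 counts and PSAT1P1 at most 1 in any library.

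PSPH (chromosome 7, 56011051 to 56051604, minus strand), the phosphatase that completes serine, was 24.5, 20.3 and 14.7 CPM in control replicates 1 to 3 and 15.0, 15.9 and 15.7 CPM in shtRF replicates 1 to 3. Control replicate 3 lay below all shtRF libraries, so the groups overlapped. PSPH fell by 0.35 ± 0.12 on the log2 scale (adjusted p = 0.0200), and by 0.53 without control replicate 3 (adjusted p = 2.31e-05). The call was lost without control replicate 1 (-0.18, adjusted p = 0.204), control replicate 2 (-0.34, adjusted p = 0.0582), shtRF replicate 1 (-0.33, adjusted p = 0.0753) or shtRF replicate 3 (-0.36, adjusted p = 0.0583). It was lost with DESeq2 as well (-0.36, adjusted p = 0.160). Of the 7 genes that fell, PSPH alone lost its call under any setting tried.

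The DNA upstream of the first and second gene is shown because their levels were so unequal. Both stretches are from RefSeq start sites on GRCh38.p14 and are written 5′ to 3′ on the plus strand, with CCAAT boxes, a common promoter element, in capitals. The PHGDH stretch covers chr1:119711684-119711883 and stops at the next exon of the gene in the count table, whose gene model also holds exons further upstream, so the stretch is intronic in that model. The PSAT1 stretch covers chr9:78296875-78297124.
PHGDH: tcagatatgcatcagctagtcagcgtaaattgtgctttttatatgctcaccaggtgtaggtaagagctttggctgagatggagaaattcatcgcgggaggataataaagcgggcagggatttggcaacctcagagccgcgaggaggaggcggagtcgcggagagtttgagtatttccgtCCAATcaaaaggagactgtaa
PSAT1: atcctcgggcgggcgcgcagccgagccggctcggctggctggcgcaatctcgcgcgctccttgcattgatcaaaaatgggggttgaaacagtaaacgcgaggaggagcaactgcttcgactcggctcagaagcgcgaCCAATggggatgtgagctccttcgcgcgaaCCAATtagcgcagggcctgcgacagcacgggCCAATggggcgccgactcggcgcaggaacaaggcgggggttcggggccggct

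The PSAT1 stretch holds 3 CCAAT boxes and the PHGDH stretch 1. In the 250 bases upstream of the start, 65.6% of PSAT1 bases and 51.2% of PHGDH bases were G or C, against a median of 58% over 35116 RefSeq promoters. PSAT1 had 30 CG dinucleotides there, more than 87.6% of promoters, and PHGDH had 11, the median number. Methylation of these CG sites was not measured in the libraries.

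Upstream sequences were found for 7 of the 10 genes, all but PSPH, SHMT2 and ALDH1L2. Both strands of the 250 bases before each start were searched for exact matches to 4 motifs. Elements outside those bases and imperfect matches were not sought, so a gene without a match may still have such an element. CCAAT was found in 6 of the 7 (all but TYMS) and in 32.0% of all promoters, and GGGCGG, the GC box, in 3 of the 7 (MTHFD1L, PSAT1 and SHMT1) and in 42.6% of all promoters. CACGTG, the E-box bound by MYC and its relatives, was found at MTHFD1 and MTHFD1L and in 6.34% of all promoters. TGATGNAA, the composite element at which ATF4 pairs with a C/EBP protein, was found at MTHFD1L alone and in 3.14% of all promoters. A gene with several listed start sites counted once if any of them had the motif. The shares of all promoters count each start site on its own, so a member with several starts had more room for a match. The MTHFD1L element (chr6:150866347-150866374, plus strand, capitals mark the motif) lies upstream of 2 of its 4 RefSeq start sites and inside an exon that begins at a more upstream start.
MTHFD1L element: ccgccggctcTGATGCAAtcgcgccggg

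The serine hydroxymethyltransferases, which hand the serine carbon to folate, act in the cytosol (SHMT1) and the mitochondrion (SHMT2). SHMT2 (chromosome 12, 57229327 to 57234935, plus strand), the mitochondrial form, was 71.0, 63.4 and 56.7 CPM in control replicates 1 to 3 and 45.4, 49.4 and 48.7 CPM in shtRF replicates 1 to 3. All shtRF libraries lay below all control libraries. SHMT2 fell by 0.41 ± 0.07 on the log2 scale (adjusted p = 4.72e-05). Without control replicate 3 it fell by 0.49 on the log2 scale. Of its exonic bases 9.51% lay in exons of opposite-strand genes, RP11-123K3.9 (log2 difference -0.20, adjusted p = 0.186) and NDUFA4L2 (-0.31, adjusted p = 0.294). SHMT1 (chromosome 17, 18327860 to 18363563, minus strand), the cytosolic form, was 32.9, 28.0 and 31.1 CPM in control and 32.0, 35.3 and 34.1 CPM in shtRF replicates 1 to 3. These ranges overlapped, and the log2 difference was 0.14 ± 0.07 (adjusted p = 0.108), or 0.15 without control replicate 3. It shared 2.69% of its exonic bases with SMCR8 on the other strand.

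The difference between the 2 forms was compared within each library. The log2 ratio of SHMT2 to SHMT1, in counts per exonic length, was 1.70, 1.77 and 1.46 in control replicates 1 to 3. In shtRF replicates 1 to 3 it was 1.10, 1.07 and 1.11. The ratio averaged 1.64 ± 0.17 in control and 1.09 ± 0.02 in shtRF cells (SD, n = 3). The groups were separate, with a difference of -0.55 (exact two-sided permutation test, p = 0.1, adjusted p = 0.15 over the 6 ratios examined). With 3 libraries a group 0.1 is the smallest p such a test can give. Control replicate 3 was the lowest control in this ratio, nearer to the other controls than to the shtRF libraries, and the difference was -0.64 without it.

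The trifunctional cytosolic enzyme MTHFD1 (chromosome 14, 64388031 to 64463457, plus strand) was 184, 189 and 201 CPM in control and 157, 173 and 160 CPM in shtRF replicates 1 to 3. The groups were separate but close, and MTHFD1 fell by 0.23 ± 0.06 on the log2 scale (adjusted p = 0.00221), the smallest change of the 7 that fell. Here control replicate 3 was the highest library, not the lowest, and without it MTHFD1 fell by 0.19 on the log2 scale (adjusted p = 0.0108). Of its exonic bases 11.04% lay in exons of opposite-strand genes, chiefly CTD-2555O16.4 (-0.25, adjusted p = 0.0157) and ZBTB25 (-0.25, adjusted p = 0.00287), which fell by a like amount, and CTD-2555O16.2 (-0.21, adjusted p = 0.0760). Whether strand was used in counting is not given in the sources used here, so reads of such partners may have been credited to both.

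MTHFD1L (chromosome 6, 150865549 to 151101887, plus strand), the mitochondrial enzyme that releases formate, was 15.7, 15.8 and 15.0 CPM in control and 9.57, 9.28 and 9.43 CPM in shtRF replicates 1 to 3. Both groups were tight and far apart. MTHFD1L fell by 0.72 ± 0.08 on the log2 scale (adjusted p = 2.29e-07), between 0.70 and 0.74 whichever library was left out and by 0.74 without control replicate 3, and none of its exonic bases lay in exons of another gene.

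MTHFD2 (chromosome 2, 74198562 to 74217565, plus strand), the mitochondrial dehydrogenase and cyclohydrolase that is high in many tumours, was 121, 114 and 77.5 CPM in control replicates 1 to 3. It was 65.4, 62.6 and 63.2 CPM in shtRF replicates 1 to 3. The groups were separate, but control replicate 3 lay nearer to the shtRF libraries than to the other controls. MTHFD2 fell by 0.71 ± 0.10 on the log2 scale (adjusted p = 6.85e-06). Without control replicate 3 it fell by 0.88 on the log2 scale. Of its exonic bases 33.2% lay in exons of opposite-strand genes, SLC4A5 (log2 difference -0.03, adjusted p = 0.906) and RP11-287D1.3 (-0.37, adjusted p = 0.00255). The same limit from shared reads applies.

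Set against MTHFD1 within each library, MTHFD1L was lower in all shtRF libraries. The log2 ratio of counts per exonic length was -2.72 ± 0.10 in control and -3.21 ± 0.10 in shtRF cells (SD, n = 3). The difference was -0.49 (exact permutation p = 0.1, adjusted p = 0.15), or -0.55 without control replicate 3. MTHFD2 against MTHFD1 gave overlapping groups (0.34, 0.22 and -0.43 in control replicates 1 to 3, and -0.31, -0.52 and -0.40 in shtRF replicates 1 to 3, exact permutation p = 0.3, adjusted p = 0.36). The MTHFD2 to MTHFD1 difference was -0.45 with all libraries and -0.69 without control replicate 3. PHGDH was also set against PSPH, the first against the last step of serine synthesis. Per exonic length, PHGDH counts went from 6.23 times to 2.55 times those of PSPH. The groups were separate (log2 difference -1.29, exact permutation p = 0.1, adjusted p = 0.15). In this ratio control replicate 3, at 2.74 on the log2 scale, sat with control replicates 1 and 2 at 2.48 and 2.70, and the difference was -1.24 without it. The ratios of PHGDH to PSAT1 (exact permutation p = 0.5) and of ALDH1L2 to MTHFD2 (exact permutation p = 0.1, adjusted p = 0.15) rested on fewer than 30 counts of the scarcer gene in each library.

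ALDH1L2 (chromosome 12, 105019784 to 105084577, minus strand), the mitochondrial enzyme that oxidises formyl-folate, was at the edge of detection. Its counts were 6, 15 and 8 in control and 28, 16 and 10 in shtRF replicates 1 to 3. The groups overlapped, and the log2 difference of 1.01 ± 0.54 did not pass (adjusted p = 0.151), nor did the value of 0.85 without control replicate 3 (adjusted p = 0.334). Counts of 10 or more were reached in all 3 shtRF libraries and 1 control library, so the gene passed the filter through the shtRF group.

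TYMS (chromosome 18, 657604 to 673578, plus strand), which makes thymidylate for DNA synthesis and is high in cycling cells, was 63.1, 62.2 and 61.5 CPM in control and 49.3, 49.99 and 45.9 CPM in shtRF replicates 1 to 3. The groups were separate and control replicate 3 was level with its group. TYMS fell by 0.36 ± 0.06 on the log2 scale (adjusted p = 1.67e-05). Without control replicate 3 it fell by 0.37 on the log2 scale. It shared 26.2% of its exonic bases with opposite-strand genes, ENOSF1 (-0.37, adjusted p = 3.98e-05) and TYMSOS (-0.57, adjusted p = 0.000176), which fell as well, and reads may be shared there too.

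**Figure D2:**
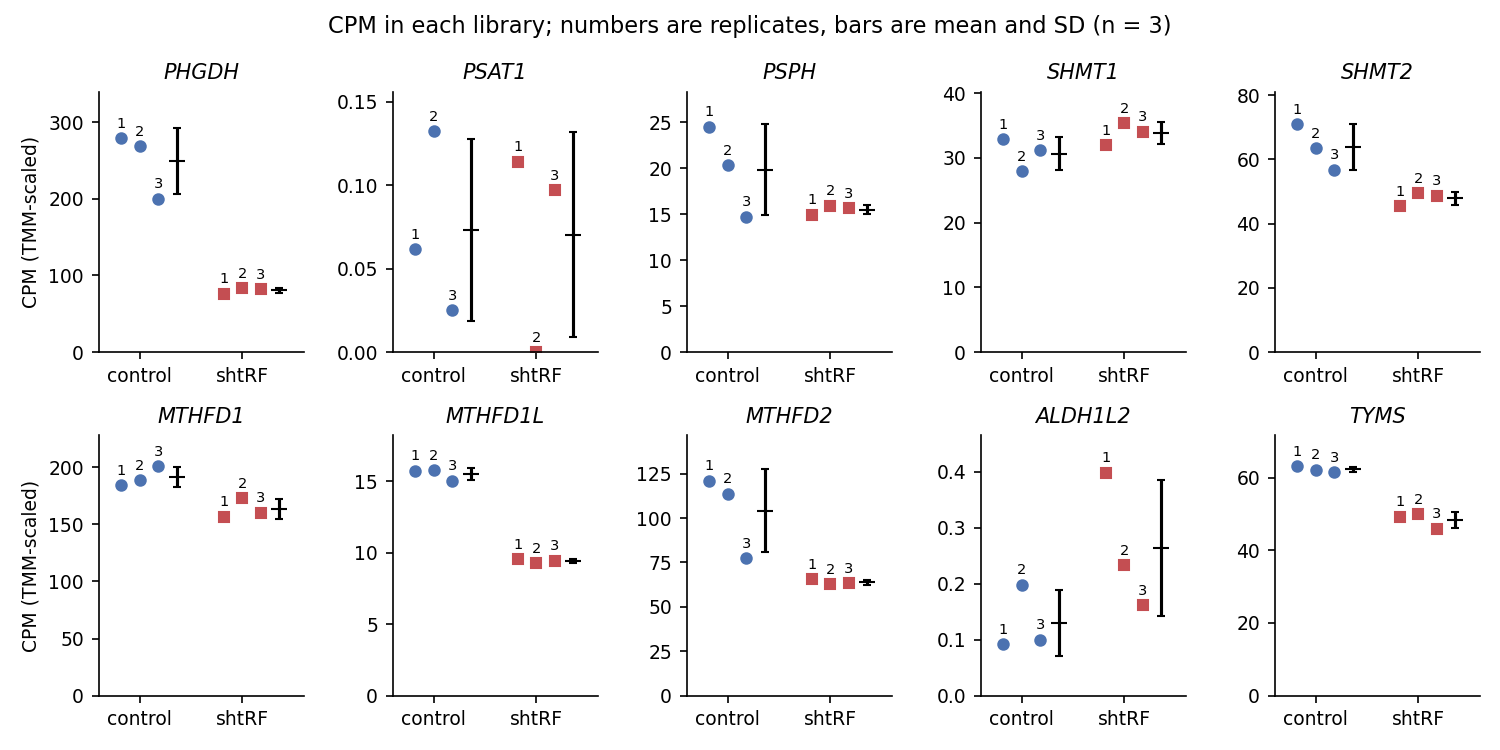
CPM of each of the 10 enzymes in every library (TMM-scaled, linear axes from 0), with the replicate number above each point and the mean and SD beside each group (n = 3). PHGDH, SHMT2, MTHFD1, MTHFD1L, MTHFD2 and TYMS are separate between groups, control replicate 3 lies well below the other controls for PHGDH, PSPH and MTHFD2, and PSAT1 and ALDH1L2 stay below 0.4 CPM.

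Levels of different genes were compared per length, as RPKM, which scales each count to the gene's exonic length and the depth of its library. In control cells PHGDH had the highest level of the 10, 45.2 ± 7.94 RPKM, above 94.8% of tested genes. TYMS (25.7 ± 0.43 RPKM), MTHFD2 (21.8 ± 4.97) and MTHFD1 (20.8 ± 0.85) followed, and neighbours among these overlapped. SHMT2 (13.4), PSPH (7.32), SHMT1 (4.29) and MTHFD1L (3.15 RPKM) came next, each separate from its neighbours in range.

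In shtRF cells PHGDH was at 14.0 ± 0.29 RPKM, below TYMS (19.2) and MTHFD1 (17.1 ± 0.57) and just above MTHFD2 (12.9 ± 0.62), all separate in range. The order of SHMT2, PSPH, SHMT1 and MTHFD1L was as in control cells. PSAT1 (0.034 and 0.032 RPKM in control and shtRF cells) and ALDH1L2 (0.016 and 0.031 RPKM) were last in both groups and could not be ordered.

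**Figure D3:**
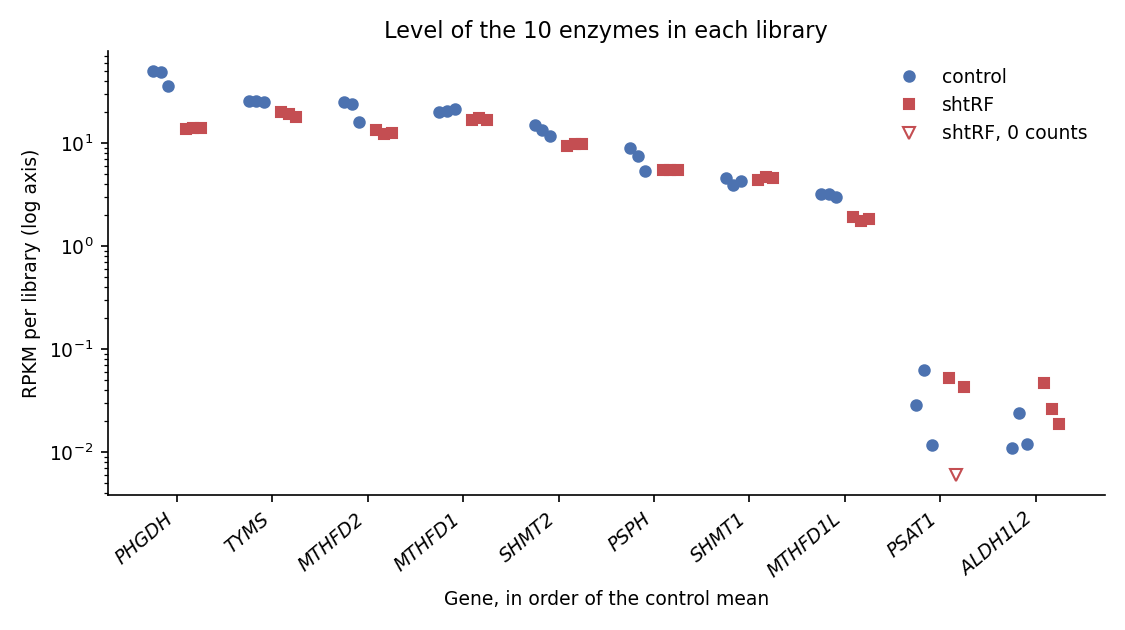
RPKM of the 10 enzymes in every library on a log axis, in order of the control mean, with an open triangle for the library with 0 counts. PHGDH drops from the top of the order in control cells to just above MTHFD2 in shtRF cells, and PSAT1 and ALDH1L2 lie below 0.1 RPKM.

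The spread among control libraries differed by gene. The coefficient of variation over the 3 control libraries was 24.7% for PSPH, 22.4% for MTHFD2, 17.2% for PHGDH and 11.2% for SHMT2, against 3.18%, 2.35%, 4.40% and 4.41% over the 3 shtRF libraries. For TYMS it was 1.29% in control and 4.52% in shtRF cells, and for MTHFD1L 2.62% and 1.55%. At the few counts of PSAT1 and ALDH1L2 it was 74.8% and 45.4% in control cells. The control values include replicate 3, so they restate its distance from the other controls.

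ATF4 target genes moved with these differences. Of the 29 genes of the ATF4 amino acid response list, all tested and none of them among the 10 enzymes, 21 fell and 2 rose, with a median log2 fold change of -0.43. Without control replicate 3, 26 fell and 2 rose, with a median of -0.64. Their summed level was 3488, 3253 and 2341 CPM in control replicates 1 to 3, and 2204, 2241 and 2222 CPM in shtRF replicates 1 to 3, so control replicate 3 lay close to the shtRF libraries. DDIT4, an inhibitor of growth signalling, fell from 395 ± 128 to 56.2 ± 2.32 CPM (log2 fold change -2.81), and the amino acid carrier subunit SLC7A5 and the secreted glycoprotein STC2 fell by 1.69 and 2.42. The log2 fold changes of DDIT4, SLC7A5 and STC2 were -3.05, -1.95 and -2.80 without control replicate 3. SARS1, the cytosolic seryl-tRNA synthetase, rose by 0.38 and the factor ATF5 by 0.41. The part of this response in the enzymes' change was not tested.

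S phase markers moved too, but control replicate 3 was on the other side. Of 20 S phase markers 13 fell and 2 rose, with a median log2 fold change of -0.25, and without control replicate 3, 12 fell and 2 rose, with a median of -0.21. Their summed level was 4826, 4855 and 5335 CPM in control replicates 1 to 3 and 4066, 4457 and 4178 CPM in shtRF replicates 1 to 3, so that control replicate 3 was the highest library. CDT1, which licenses replication origins, fell by 0.87, and the helicase subunits MCM2 and MCM7 by 0.44 and 0.45. CDK1 and E2F1 passed in the other direction, at 0.23 and 0.17, and lost their calls, with 0 rising, without control replicate 2 or shtRF replicate 1. Without control replicate 1, shtRF replicate 2 or shtRF replicate 3, 1 rose. The part of cell cycling in the change of TYMS and MTHFD1 was not tested.

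**Figure D4:**
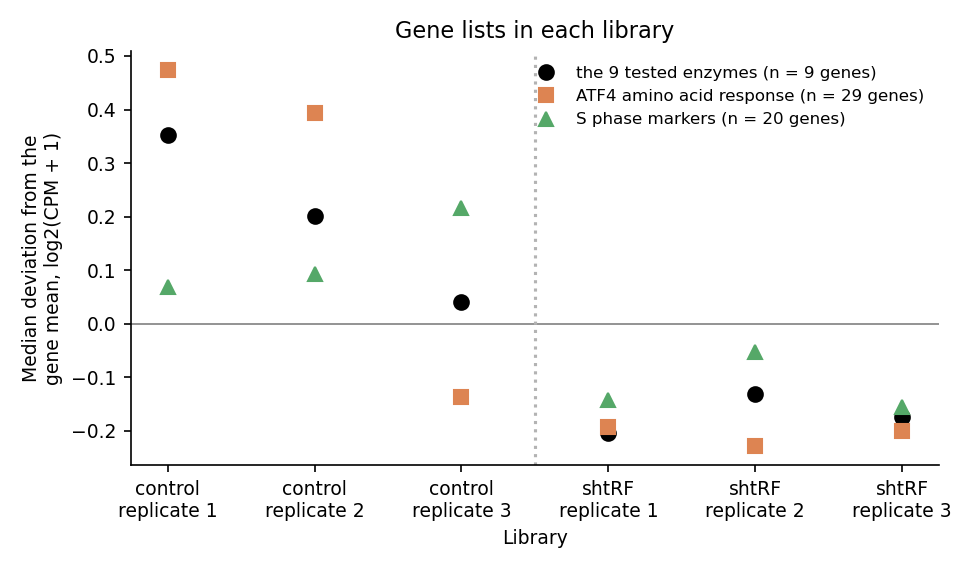
Median deviation of each library from the gene mean, in log2(CPM + 1), over the 9 tested enzymes (circles), the ATF4 amino acid response list (squares) and the S phase markers (triangles). Control replicate 3 is at -0.14 for the ATF4 list, below 0 like the shtRF libraries, and at 0.22 for S phase markers, the highest of the 6.

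Among known regulators of serine synthesis, 5 of 10 fell and 0 rose by edgeR or DESeq2. At an unadjusted p under 0.05, 1 was higher, MDM2, and it passed the adjusted threshold without control replicate 3. ATF4 itself was 408, 386 and 259 CPM in control and 256, 231 and 228 CPM in shtRF replicates 1 to 3. It fell by 0.56 on the log2 scale (adjusted p = 0.000163), and control replicate 3 lay just above the highest shtRF library. Without that library ATF4 fell by 0.73 on the log2 scale. MYC, which the study also picked from these libraries, was 20.8, 21.8 and 20.5 CPM in control and 7.76, 7.18 and 7.72 CPM in shtRF replicates 1 to 3, with no gap at control replicate 3, and fell by 1.48. HIF1A, the oxygen-sensing factor, fell by 0.36.

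The genes around the 10 enzymes showed no common direction in most lists. Of 17 other folate enzymes and carriers 12 were tested, 3 fell and 3 rose, with a median of 0.01. SLC19A1, the reduced folate carrier of the cell surface, fell by 0.79, GGH, which trims folate tails, by 0.57, and MTHFD2L, the isozyme of MTHFD2, by 0.41. SLC25A32, the mitochondrial folate carrier, rose by 0.49, MTHFS by 0.44 and FPGS, which adds folate tails, by 0.27. Without shtRF replicate 2, 1 rose. The genes not tested were ALDH1L1, FTCD, FOLR1, FOLR2 and FOLR3, each with at most 8 counts in any library.

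Of 23 genes that use serine or glycine 18 were tested, 3 fell and 3 rose, with a median of 0.03. GATM, which takes glycine to the creatine precursor, fell by 1.03, GCSH, the carrier protein of the glycine cleavage system, by 0.49, and the phosphatidylserine synthase PTDSS2 by 0.45. ALAS1, which uses glycine in the first step of haem synthesis, rose by 0.82, and GNMT and SDSL by 0.52 and 0.51. GLDC, the decarboxylase of glycine cleavage, was not tested, with at most 2 counts in any library, and neither were AGXT, DAO, SARDH and DMGDH. Without shtRF replicate 2, 5 rose.

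Of 14 carriers of serine and glycine 10 were tested and 3 passed, against 39.5% of all tested genes. There were 2 that fell (SLC38A2, by 0.24, and the mitochondrial serine carrier SFXN1, by 0.21) and 1 that rose (SLC38A1, 0.25). The number that fell was 4 without control replicate 3, 0 without shtRF replicate 2, and 1 without any of control replicate 1, control replicate 2 or shtRF replicate 3, while 2 rose without control replicate 1. SLC38A4, SLC6A5, SLC6A14 and SLC7A10 were not tested, with at most 6 counts.

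Glycolytic genes around 3-phosphoglycerate, the substrate of PHGDH, included 6 of 11 that fell by edgeR, with a median of -0.18. None rose, also at an unadjusted p under 0.05 and with DESeq2. PGK1, which makes 3-phosphoglycerate, fell from 181 ± 6.96 to 95.1 ± 5.75 CPM (log2 fold change -0.93), GAPDH fell by 0.66 and ENO1, which lies downstream, by 0.35. In the methionine cycle, which takes up folate carbon through MTR, 4 of 14 fell and 3 rose, with a median of -0.06. MTR fell by 0.62, AHCY by 0.48 and MAT2A by 0.35, and AHCYL2 rose by 0.58, MAT2B by 0.35 and ADI1 by 0.31. With control replicate 3 left out, the medians were 0.04 for other folate genes, -0.02 for serine and glycine use, -0.11 for the carriers, -0.20 for glycolysis and -0.08 for the methionine cycle.

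The routes that spend folate carbon on nucleotides gave mixed counts. In purine synthesis 6 of 13 fell and 1 rose, with a median of -0.15. PFAS, PAICS and IMPDH2 fell by 0.90, 0.78 and 0.63, and PRPS1, which makes the ribose donor, rose by 0.52. In deoxynucleotide supply 5 of 16 tested genes fell and 5 rose, with a median of -0.07. DUT, which supplies the substrate of TYMS, fell by 0.78, SAMHD1 by 0.40 and TK1 by 0.28, while RRM2B, DCK and CTPS1 rose by 0.54, 0.22 and 0.20. The number that rose was 2 without control replicate 1 and 3 without control replicate 2 or without shtRF replicate 2. The counts of both nucleotide lists were the same without control replicate 3, with medians of -0.14 and -0.08.

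**Figure D5:**
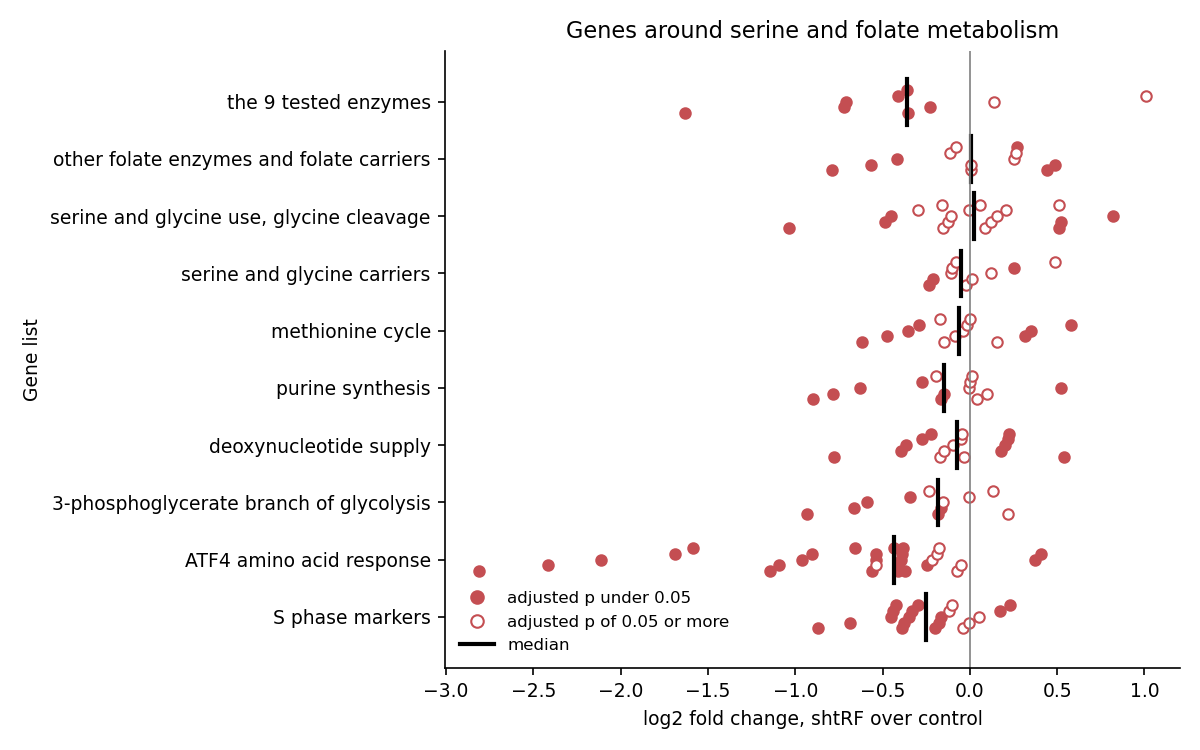
Log2 fold change, shtRF over control, of each tested gene in the 10 lists (filled where the adjusted p was under 0.05), with a black bar at the list's median. The medians run from -0.43 for the ATF4 list and -0.36 for the 9 tested enzymes to 0.03 for serine and glycine use.

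The genes whose pattern was most like that of PHGDH were sought over the 6 libraries, which share their depth and scaling, by Pearson's r of log2(CPM + 1) among 13188 genes with a mean of at least 2 CPM. They were RP1-261G23.7 (r = 0.9996), the RNA-binding protein gene RBM3 (r = 0.999), the angiogenic factor gene VEGFA (r = 0.999), GOLGA6L9 (r = 0.999) and ZSCAN30 (r = 0.998). All 188 exonic bases of RP1-261G23.7 lie in VEGFA exons on the other strand, so this pair may share reads. High values were common, since 1975 genes had r over 0.9. Among the other enzymes r with PHGDH was 0.989 for MTHFD1L, 0.968 for TYMS, 0.957 for SHMT2, 0.935 for MTHFD2, 0.839 for MTHFD1, 0.736 for PSPH and -0.64 for SHMT1. MTHFD1L was 147th of the 13188 genes, ahead of the other members.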

How the data were processed

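Messenger RNA was sequenced as pairs of 150-base reads in 6 libraries, 3 per group, grouped by the sample titles. The authors deposited raw read counts per gene, with exon coordinates. The submitters' processing notes name Trimmomatic 0.36, featureCounts in Subread 1.5.1, edgeR 3.12.1 and GRCh38. The aligner and the strand setting are not given in the sources used here. The kit was strand-specific. The authors also deposited RPKM values. For 4991 of the 4997 complete genes used here, matched by symbol, 100% of values equalled the count divided by exonic length and library total (relative tolerance 1e-05), so RPKM was recomputed for all genes. The part of the deposited RPKM table used here held 3 of the 10 enzymes.

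Counts were tested with edgeR 4.0.16 (R 4.3.3): filterByExpr (minimum count 10), TMM scaling (factors 0.961 to 1.03), quasi-likelihood test and Benjamini-Hochberg adjustment over 19628 genes, with a threshold of 0.05. CPM values are TMM-scaled. Common dispersion was 0.0057. The scripts were checked on made-up counts with known changes. Totals per library were 63541413 to 78917459 counts. Of counts of 1 to 4, 74.2% to 77.1% were even, against 49.7% to 50.7% of counts of 1000 or more, so both mates seem to have been counted. The floor for a count of 0 is 3 read pairs, taken as 6 counts, and covers counting error only.

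Within-library log2 ratios of counts per exonic length (pseudocount 0.5, added to the counts) were compared by an exact two-sided permutation test. Alternatives were RLE and upper quartile scaling, other filters, halved counts, DESeq2 1.42.0, edgeR's exact test, limma 3.58.1 on log2(RPKM + 1) and log2(RPKM + 0.1), the replicate number as a block, and leaving out each library. Upstream sequences are RefSeq's on GRCh38.p14, 250 bases before each start.

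The members and 16 other lists (pathways, regulators and cell type markers) were chosen with earlier results of these data known. Named genes were all members; in each list the 3 with the lowest adjusted p in each direction, with a mean of at least 2 CPM; untested genes of the folate, serine and glycine lists; genes sharing exons with a member; and the 5 most like PHGDH. The study used biological replicates but does not state whether they were separate transductions. The p-values weigh the group difference against the spread between these libraries, which may be technical. Same-numbered libraries did not deviate together (r = 0.018, -0.0029 and 0.0045), so numbers were not taken to pair them.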

Additional observations from a re-analysis of the deposited data

How the results depend on the processing

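Over 16 settings the members gave 142 values. Of these, 135 kept their direction and their side of the threshold, 7 lost significance in the same direction, and 0 reversed. All 7 were PSPH, with limma on RPKM (pseudocount 1, -0.33, adjusted p = 0.131; pseudocount 0.1, -0.37, adjusted p = 0.121), with DESeq2, and without each of 4 libraries as given above. Members that fell numbered 6 to 7 when 1 library was left out, and 0 rose. PHGDH ranged from -1.77 to -1.55 over all settings. With the replicate number as a block, PHGDH fell by 1.62 (adjusted p = 1.75e-16), 7 members fell, and no member's call changed. Of 288 counts for the lists, 263 stayed within 1.5 times. With upper quartile scaling, which moved the median of all genes to -0.039 and the higher share of all calls from 52.2% to 45.7%, 5 genes of serine and glycine use fell and 0 S phase markers rose. With no filter beyond 1 count, 1 S phase marker rose. With limma on either RPKM scale, 1 serine or glycine carrier fell, 2 genes of deoxynucleotide supply rose and 0 S phase markers rose. Leaving out 1 library gave 1 to 3 folate genes that rose, 2 to 5 of serine and glycine use that rose, 0 to 4 carriers that fell and 1 to 2 that rose, 2 to 5 of deoxynucleotide supply that rose, and 0 to 2 S phase markers that rose. Depth limited PSAT1 and ALDH1L2, where a handful of counts decided each value. With 3 libraries a group, no permutation test could pass 0.05.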
